A study of Homo sapiens with 24 samples.

Results

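The 10 classical cadherin genes described here were taken by symbol from a gene table of 28301 features. They are 4 type I genes (CDH1, CDH2, CDH3 and CDH4), 5 type II genes (CDH5, CDH6, CDH8, CDH11 and CDH12) and CDH13, an atypical cadherin held in the membrane by a lipid anchor. All 10 were found in the table. The study sequenced polyadenylated RNA of H9, an established line of human embryonic stem cells, in 24 libraries that form 8 groups of 3. Engineered cells carried a fusion of the plant photoreceptor Cry2 with the intracellular part of the Wnt co-receptor LRP6, followed by mCherry, and a puromycin resistance gene. Wild-type H9 cells carried eGFP and a neomycin resistance gene. The design asks what light does to cells with this receptor and to wild-type cells growing beside them.

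The 4 monoculture groups were engineered cells in the dark (Cry2 dark), engineered cells under light (Cry2 light), wild-type cells in the dark (wt dark) and wild-type cells under light (wt light). The 4 co-culture groups came from mixed cultures of both cell kinds, kept in the dark or under light and then sorted by flow cytometry. They were the mCherry-positive engineered cells (mCherry dark and mCherry light) and the GFP-positive wild-type cells (GFP dark and GFP light). Every culture grew in E8, a defined medium that keeps stem cells pluripotent, and the illuminated ones received 0.8 µW/mm² over 48 h. Wells were pooled to make each replicate. The sources used here do not name the promoter that drives the construct, nor say whether the engineered line is a single clone.

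Classical cadherins are calcium-dependent adhesion proteins that span the membrane, bind cadherins on the next cell and hold catenins on the inner side: beta-catenin or plakoglobin, and p120-catenin. Beta-catenin also carries canonical Wnt signals to the nucleus, so the same protein serves junctions and transcription. Pluripotent cells and epithelia carry mainly E-cadherin (CDH1). At the primitive streak, where cells leave the epiblast as mesoderm, E-cadherin gives way to N-cadherin (CDH2), a step known as the cadherin switch, driven in embryos by repressors such as the Snail and ZEB families.

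On GRCh38 with the GENCODE 29 annotation, 6 of the 10 genes lie on chromosome 16. CDH3 (68636189 to 68722616) and CDH1 (68737225 to 68835548) are neighbours on its plus strand, 14608 bases apart. CDH8 (61647242 to 62037035, minus), CDH11 (64943753 to 65126112, minus), CDH5 (66366622 to 66404786, plus) and CDH13 (82626803 to 83800640, plus) are on the same chromosome. CDH12 (21750673 to 22853622, minus) and CDH6 (31193750 to 31329146, plus) lie on chromosome 5, CDH2 (27950966 to 28177446, minus) on chromosome 18 and CDH4 (61252426 to 61940617, plus) on chromosome 20. Annotated antisense genes overlap exons of CDH1, CDH2, CDH3, CDH6, CDH8 and CDH13. On the same strand, the processed pseudogene DUX4L51 overlaps exons of CDH6, and AC010533.1 those of CDH11, and how the counting split such reads is not known here. The sources used here do not say how the counting treated strand, so reads of these genes and of their antisense partners cannot be told apart.

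RefSeq promoter sequences on GRCh38.p14, 300 bases each from 250 before to 50 after a start, were matched for 4 of the 10 genes, with 9 starts in all: CDH2, CDH4, CDH8 and CDH12. CDH1, CDH3, CDH5, CDH6, CDH11 and CDH13 are named only. The 4 matched genes were all higher in illuminated than in dark mCherry cells, as set out further on, and 3 of the 9 windows are shown: 1 of the 2 windows of CDH2, the N-cadherin gene, at the start farthest upstream, and the 2 in which a searched motif was found. Each was searched on both strands for a TCF/LEF motif (CTTTGAT or CTTTGAA), the Snail and ZEB type of E-box (CACCTG) and a T-box site (TCACACCT). Capitals mark a match, and sequences run 5′ to 3′ on the gene's strand.
CDH2, chr18:28177081-28177380, minus strand: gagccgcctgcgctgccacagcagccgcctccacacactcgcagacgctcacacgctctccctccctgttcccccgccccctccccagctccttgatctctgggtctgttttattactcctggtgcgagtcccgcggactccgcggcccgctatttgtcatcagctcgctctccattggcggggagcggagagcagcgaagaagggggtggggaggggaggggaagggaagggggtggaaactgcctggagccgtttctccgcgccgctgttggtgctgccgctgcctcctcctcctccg
CDH12, chr5:22853295-22853594, minus strand: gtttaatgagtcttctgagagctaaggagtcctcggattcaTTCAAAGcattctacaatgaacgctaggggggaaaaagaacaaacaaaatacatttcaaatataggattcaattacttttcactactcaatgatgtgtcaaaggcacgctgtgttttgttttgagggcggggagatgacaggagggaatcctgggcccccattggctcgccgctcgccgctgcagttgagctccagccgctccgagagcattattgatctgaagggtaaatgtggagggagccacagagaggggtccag
CDH4, chr20:61499171-61499470, plus strand: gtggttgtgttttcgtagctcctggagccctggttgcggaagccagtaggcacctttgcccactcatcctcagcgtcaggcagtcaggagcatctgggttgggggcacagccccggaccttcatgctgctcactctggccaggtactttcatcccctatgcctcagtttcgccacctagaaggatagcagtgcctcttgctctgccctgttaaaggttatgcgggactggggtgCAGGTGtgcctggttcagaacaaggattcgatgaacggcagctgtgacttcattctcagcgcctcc
Neither this CDH2 window nor the other one held any of the 3 motifs. The CDH12 window held 1 TCF/LEF match, TTCAAAG, beginning at base 42, a motif found in 6.86% of the 35116 RefSeq promoters of this length. The CDH4 window, which is at an internal start of the gene, held 1 E-box, CAGGTG, beginning at base 235, a motif found in 20.6% of promoters. No T-box match (0.98% of promoters) was found in any of the 9 windows. These matches describe letters in a window, not bound sites, and which start the cells used was not measured.

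Values are the authors' normalised read counts (reads divided by 1 scaling factor per library), given by library or as mean ± SD with n = 3, and adjusted p-values come from limma on log2(value + 1) over all genes tested unless another tool is named. The 6 dark monoculture libraries held 28211236 to 34278319 reads assigned to genes, the 6 illuminated ones 45748680 to 54689953, and the sorted libraries 31763812 to 56620471, so that in monoculture the deeper libraries are the illuminated ones. The labels name biological replicates of pooled wells, without saying that they came from separate experiments, so p-values measure the spread between these libraries. The Cry2 fusion was read at 34166 to 61394 in engineered libraries and at 219 to 427 in wild-type libraries. The fusion contains LRP6 sequence, so reads of the construct and of LRP6 cannot be fully told apart. The 8 pluripotency markers (POU5F1, NANOG, SOX2 and 5 others) summed to 323615 to 375010 in the 18 libraries that were dark or wild type, and to 76572 to 93253 in the 6 illuminated engineered libraries, where 6 streak and paraxial mesoderm markers summed to 112181 to 131348 against 541 to 945 elsewhere. The 6 mesoderm markers did not all move together in Cry2 and mCherry light, where 58.4% and 55.9% of all genes were called. TBXT, MIXL1, MSGN1 and TBX6 were called higher there, TCF15 was called lower and MEOX1 was not tested. The part of the pluripotency and mesoderm markers in the cadherin results was not tested. Among the monocultures, wt dark replicate 1 (GC content 33.7%) and Cry2 dark replicate 3 (RNA integrity number 7.6) stood apart from the rest (50.5% to 51.8% and 8.9 to 10). Without both, the counts of cadherin genes called below were the same in 4 of the 5 monoculture comparisons, and the remaining one is given where it occurs. By read counts, wt light replicate 2 stood apart from replicates 1 and 3 (chi-square per degree of freedom 56.8 and 46.7, against 5.66 between those). So did mCherry light a from b and c (68.9 and 78.6, against 14.9). Leaving out any 1 library, limma still called 0 cadherin genes in wt light against dark. The table numbers no replicates of the sorted cells, whose libraries are therefore lettered a to c as they stand in it.

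In the dark, both cell kinds expressed the type I cadherins of pluripotent cells. CDH1 was read at 11941, 11574 and 11695 in the 3 Cry2 dark libraries and at 12221, 13191 and 12921 in wt dark. CDH3, the gene of P-cadherin, stood nearly level with it, at 10843, 10997 and 11757 in Cry2 dark and 10666, 10523 and 10708 in wt dark. Levels per kilobase of exon were used to set genes side by side, with exons merged over all annotated transcripts, since the transcript forms in use were not measured. On this scale the level in Cry2 dark was 1900.0 ± 30.3 for CDH1, 1796 ± 78.5 for CDH3 and 489 ± 19.8 for CDH2. The next were CDH4, the gene of R-cadherin, at 97.0 ± 18.9 and CDH11 at 28.0 ± 0.864, followed by CDH8 at 19.1 ± 2.43, and CDH5, CDH6, CDH12 and CDH13 had means of 0.0795 to 4.3. CDH12 was at 0 reads in 2 Cry2 dark libraries and at 1 read in the other.

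**Figure D1:**
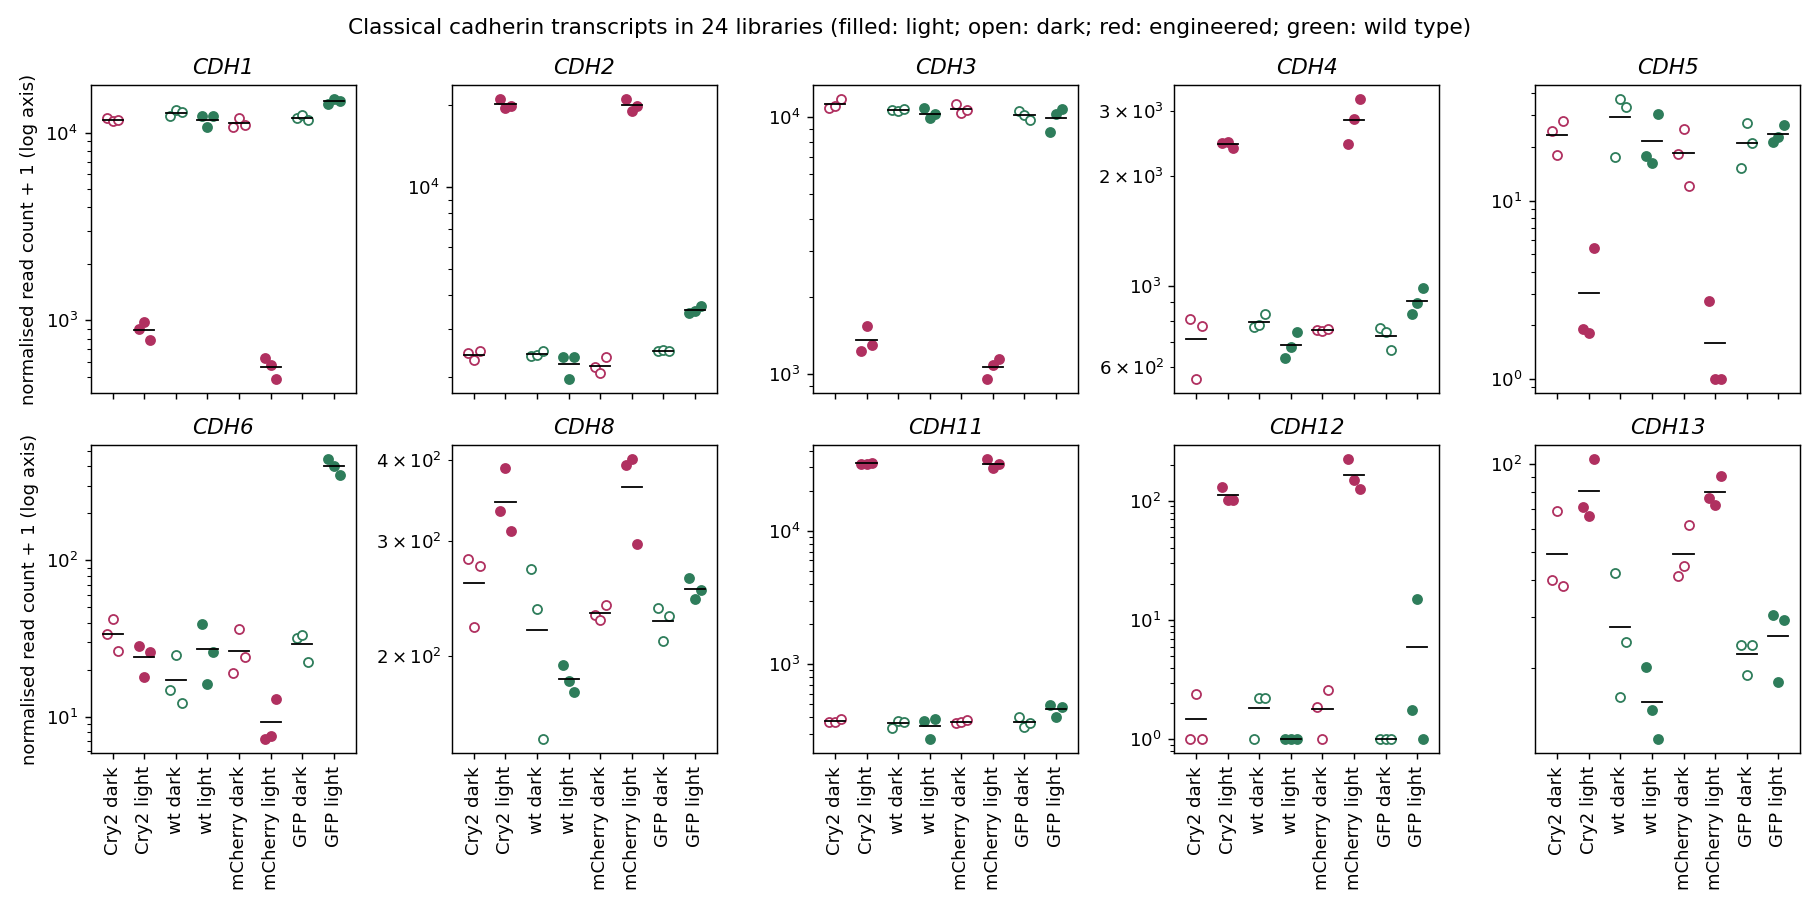
Normalised read count plus 1 (log axis) of each of the 10 classical cadherin genes in 24 libraries; points are libraries, filled under light and open in the dark, red for engineered and green for wild-type cells, and lines are group means (n = 3). The 6 illuminated engineered libraries stand apart for CDH1, CDH2, CDH3, CDH4, CDH5, CDH11 and CDH12, while CDH6 is high in the 3 GFP light libraries, at 352 to 444.

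Under light, engineered monocultures lost most of their E-cadherin and P-cadherin transcript. CDH1 was read at 903, 980 and 784 in Cry2 light, and at 11574 to 11941 in Cry2 dark. All 3 illuminated libraries lay far below all 3 dark ones, a 13.2-fold lower mean (log2 change -3.73 ± 0.08 SE, limma adjusted p = 7.15e-15). CDH3, its neighbour on chromosome 16, was read at 1226, 1535 and 1296 under light. It was 8.28-fold lower than in the dark (11199 ± 489), with a log2 change of -3.06 ± 0.07 (limma adjusted p = 2.96e-14). The groups did not overlap for either gene, and after CDH1 reads were thinned to the shallowest library its log2 change was -3.77.

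N-cadherin and R-cadherin moved the other way. CDH2 was read at 2456, 2309 and 2494 in Cry2 dark and at 21077, 19609 and 19795 in Cry2 light. Every illuminated library was above every dark one, by 8.33-fold in the means (log2 change 3.06 ± 0.07, limma adjusted p = 2.31e-14). CDH4, which encodes a neural and retinal type I cadherin closely related to N-cadherin, was read at 812, 554 and 772 in the dark. It reached 2459, 2473 and 2380 under light, 3.42-fold higher (log2 change 1.79 ± 0.12, limma adjusted p = 3.68e-09).

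Of the type II genes, CDH11 changed most by fold among those with more than 3 reads in the lower group. CDH11, the gene of a cadherin typical of mesenchyme and bone-forming cells, was read at 367, 370 and 388 in Cry2 dark. Under light it was read at 31848, 31930 and 32313, an 85.4-fold higher mean (log2 change 6.41 ± 0.11, limma adjusted p = 1.85e-15). The 3 illuminated libraries differed little from each other, with an SD of 248 on a mean of 32030.3. CDH12, a brain cadherin gene, went from 1 read in the 3 dark libraries together to 145, 125 and 113 reads, or 131, 101 and 100 as normalised counts. Its ratio of pooled reads, scaled for depth, was 237, with a 95% exact interval of 42.3 to 9386 that covers counting error only (limma adjusted p = 8.2e-08). Genes were tested if they reached 10 in at least 3 libraries of the fit. CDH12 did so through the 3 Cry2 light libraries alone, so its p-value adds no separate support for the rise.

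CDH5, the gene of the endothelial VE-cadherin, was low in all libraries and fell further. It was read at 23.5, 17.0 and 26.8 in Cry2 dark and at 0.905, 0.81 and 4.44 in Cry2 light, which are 1, 1 and 5 reads. The mean was 10.9-fold lower, with no overlap (log2 change -3.12 ± 0.49, limma adjusted p = 5.59e-05). The 8 endothelial markers listed stood in Cry2 dark at 5.95 ± 5.68 for ESAM, 11.5 ± 5.67 for PECAM1, 33.5 for ERG, 34.8 for ETV2, 261 for TIE1, 361 for TEK, 1569 for EGFL7 and 5552 for KDR. None of the 8 had a mean of 0, and their list summed to 7591 to 8294 in Cry2 dark and to 7054 to 7528 in Cry2 light, and among the 6 tested, ETV2 and EGFL7 rose while TIE1 and ERG fell. In the sorted engineered cells that list summed to 7596 to 7729 in the dark and to 6231 to 7145 under light. Its part in the CDH5 result was not tested.

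The other 3 genes did not pass the threshold in this comparison. CDH6, a type II gene expressed in kidney and neural crest, was read at 32.6, 41.0 and 25.3 in the dark and 27.1, 17.0 and 24.8 under light, and the groups overlapped (log2 change -0.50, 95% interval -1.35 to 0.35, limma adjusted p = 0.3). CDH8, a brain type II gene, was read at 281, 221 and 274 in the dark and at 333, 388 and 311 under light, with no overlap (log2 change 0.41, interval -0.003 to 0.83, limma adjusted p = 0.0826). This call depends on the method, since edgeR gave an adjusted p of 0.0498 and DESeq2 0.0377. CDH13, the lipid-anchored T-cadherin gene, was read at 39.2, 67.9 and 37.2 in the dark and 70.6, 65.6 and 103 under light, with overlap (log2 change 0.74, interval -0.09 to 1.57, limma adjusted p = 0.116).

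In all, 4 of the 10 genes rose (CDH2, CDH4, CDH11 and CDH12) and 3 fell (CDH1, CDH3 and CDH5). Among all 19444 genes tested in this comparison, 58.4% were called, 28.1% as higher and 30.4% as lower. Calls were thus common across the whole table, and the cadherins are described by which gene moved and how far rather than by their number. In these bulk samples, fewer cells with a transcript and less of it per cell cannot be told apart.

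**Figure D2:**
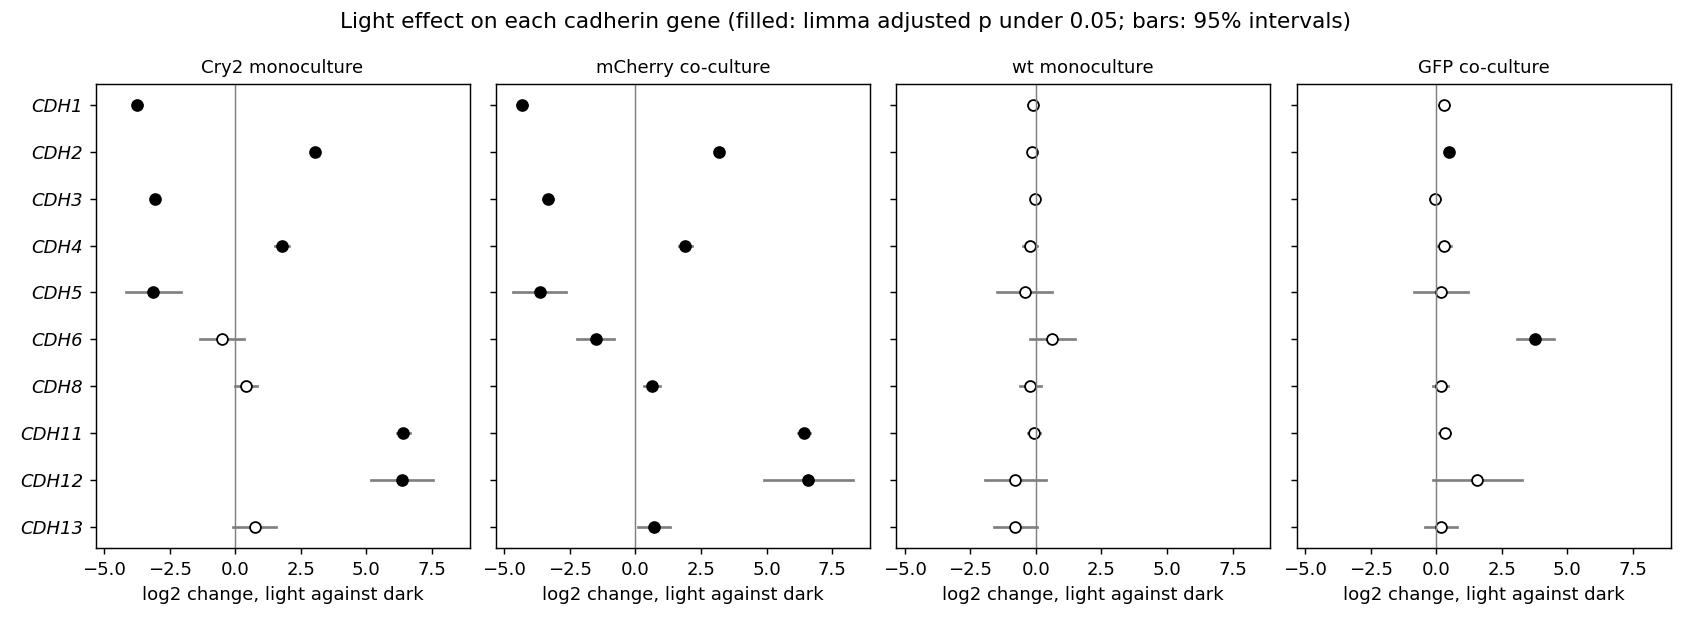
Log2 change of each cadherin gene under light against dark, on the log2(value + 1) scale, in the 4 cell populations; points are limma estimates, filled where the adjusted p was under 0.05, and bars are 95% intervals. Both engineered populations show low CDH1, CDH3 and CDH5 and high CDH2, CDH4, CDH11 and CDH12, wt monocultures have no filled point, and GFP-positive neighbours have filled points at CDH2 and CDH6.

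Engineered cells sorted from illuminated co-cultures, measured in separate libraries, also had lower CDH1 and CDH3 and higher CDH2, CDH4 and CDH11 than those from dark co-cultures. CDH1 was read at 10734, 11963 and 10971 in mCherry dark and at 632, 576 and 486 in mCherry light, a 19.9-fold lower mean (log2 change -4.32 ± 0.09, limma adjusted p = 2.15e-14). CDH3 went from 11255, 10356 and 10686 to 954, 1083 and 1147, which is 10.1-fold lower. Neither gene's groups overlapped. CDH2 went from 2184, 2064 and 2361 to 21092, 19120.0 and 19949 (9.1-fold higher), and CDH4 from 757, 749 and 759 to 2438, 2859 and 3245 (3.77-fold higher). CDH11 went from 359, 370 and 382 to 34407, 29836 and 31721, 86.4-fold higher (log2 change 6.43 ± 0.10, limma adjusted p = 1.57e-15).

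All 10 genes passed the threshold in mCherry cells, 6 higher and 4 lower under light, where 55.9% of 19436 genes did (27.2% higher, 28.7% lower). CDH12 had 3 reads in the dark libraries together and 254, 185 and 83 under light, a ratio of pooled reads of 201 (95% exact counting interval 68.3 to 976). Outside mCherry light, GFP light b (14.1) was the only sorted library where CDH12 reached 10. It was thus tested through mCherry light, and its call adds no separate support. CDH5 had 20, 26 and 14 reads in the dark and 2, 0 and 0 under light (ratio 26.0 lower, interval 6.9 to 219.8). CDH6 was read at 17.98, 35.4 and 22.9 in the dark and 6.14, 6.47 and 12.04 under light, a 3.09-fold lower mean without overlap (limma adjusted p = 0.000947). CDH8 was 1.57-fold higher (363 ± 57.7 against 232 ± 6.55, limma adjusted p = 0.00131), also without overlap. CDH13 was 1.64-fold higher (78.95 ± 10.1 against 48.3 ± 11.1), and its limma adjusted p of 0.0485 was the highest of the 10. Without mCherry light a it was 0.0756, without b 0.0638 and without c 0.135, without mCherry dark a 0.149 and without dark b 0.123. The CDH13 call was made in 6 of 16 alternatives. It was also missed with reads thinned to equal depth (limma adjusted p = 0.111) and with no filter on low values (0.0856).

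The light effect was then compared between the co-cultured and the monocultured engineered cells, in 1 fit of all 24 libraries. The limma test called 0 of the 10 genes, where 0.064% of 20322 genes were called. At an unadjusted p under 0.05 there were 2 (CDH1 and CDH3), beside 1018 of the 20322 genes. edgeR called 0 and DESeq2 called 1, CDH1, beside 24 of the 20322 genes. The CDH1 difference, co-culture minus monoculture, was -0.59 (95% interval -0.84 to -0.34) with a limma adjusted p of 0.0641, which became 0.0292 without Cry2 light replicate 3 and 0.00668 without mCherry light a. In levels, CDH1 stood at 889 ± 98.4 in Cry2 light and 565 ± 73.7 in mCherry light, with no overlap between the 2 groups. For CDH11 the difference was 0.015 (interval -0.30 to 0.33), and for CDH2 it was 0.13 (interval -0.08 to 0.34).

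The make-up of the cadherin transcripts was set out per kilobase of exon. In Cry2 dark, CDH1 held 43.8% ± 1.07 (SD over 3 libraries) of the summed 10 genes, CDH3 41.4% ± 1.17, CDH2 11.3% ± 0.222, CDH4 2.23% ± 0.401 and CDH11 0.646% ± 0.0121. In Cry2 light, CDH2 held 56.5% ± 1.19, CDH11 33.2% ± 0.824, CDH4 4.6% ± 0.0978, CDH3 3.01% ± 0.398 and CDH1 1.995% ± 0.219. On this scale CDH11, a type II gene, thus went from 0.646% to a share second to that of N-cadherin. That order depends on the exon lengths used, 13.38 kilobases for CDH11 and 4.95 for CDH2. Without division by length, CDH11 was above CDH2 in Cry2 light (32030 against 20160.5) and in mCherry light (31988 against 20054). In mCherry light the shares were 56.6% ± 0.287 for CDH2 and 33.4% ± 0.82 for CDH11. The sum itself was higher in Cry2 light than in Cry2 dark, at 7212 ± 138 against 4340 ± 106 normalised reads per kilobase, with all 3 illuminated libraries (7124 to 7371) above all 3 dark ones (4235 to 4447).

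**Figure D3:**
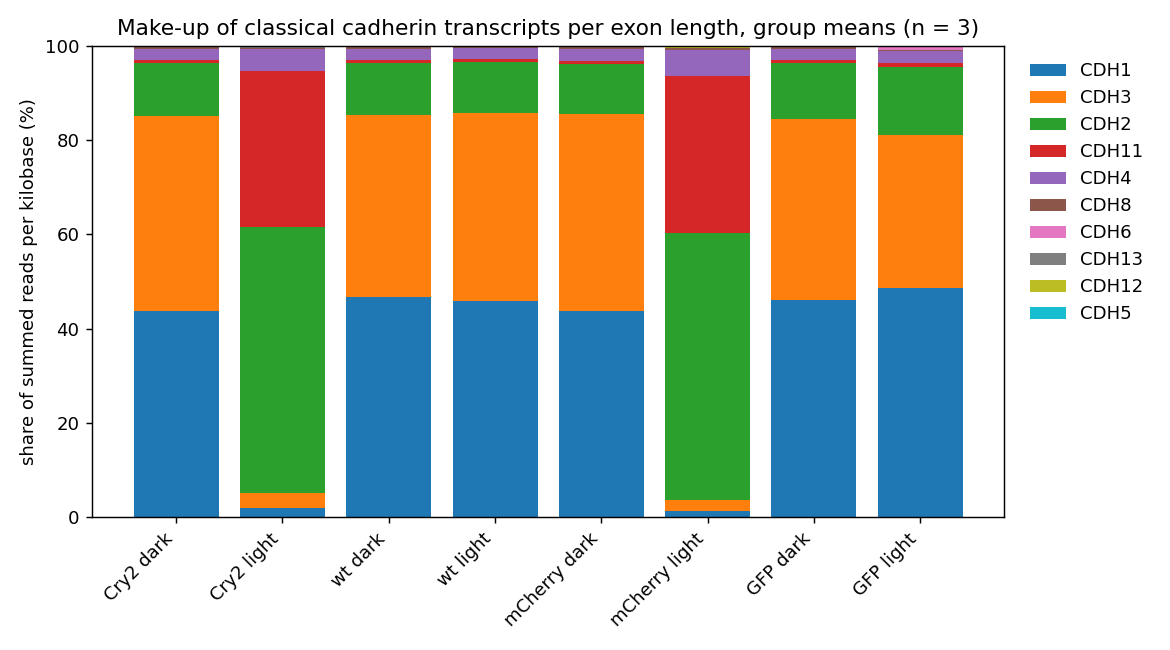
Share of each gene in the summed normalised reads per kilobase of the 10 classical cadherin genes, in percent, as means of 3 libraries in each group. CDH1 and CDH3 make up most of each bar except in Cry2 light and mCherry light, where CDH2 (56.5% and 56.6%) and CDH11 (33.2% and 33.4%) do.

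The ratio of CDH2 to CDH1 per kilobase separated the illuminated engineered and the GFP light libraries from the rest. It was 0.215 to 0.269 in the 15 libraries of Cry2 dark, wt dark, wt light, mCherry dark and GFP dark. It was 25.0 to 31.5 in Cry2 light and 41.4 to 51.2 in mCherry light. GFP light had 0.289 to 0.307, above every library of the 5 groups at the low end. Across these ranges the mean ratio was 0.257 for dark engineered monocultures and 28.5 for illuminated ones, 44.8 for illuminated mCherry cells, and 0.26 and 0.299 for GFP cells without and with light.

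**Figure D4:**
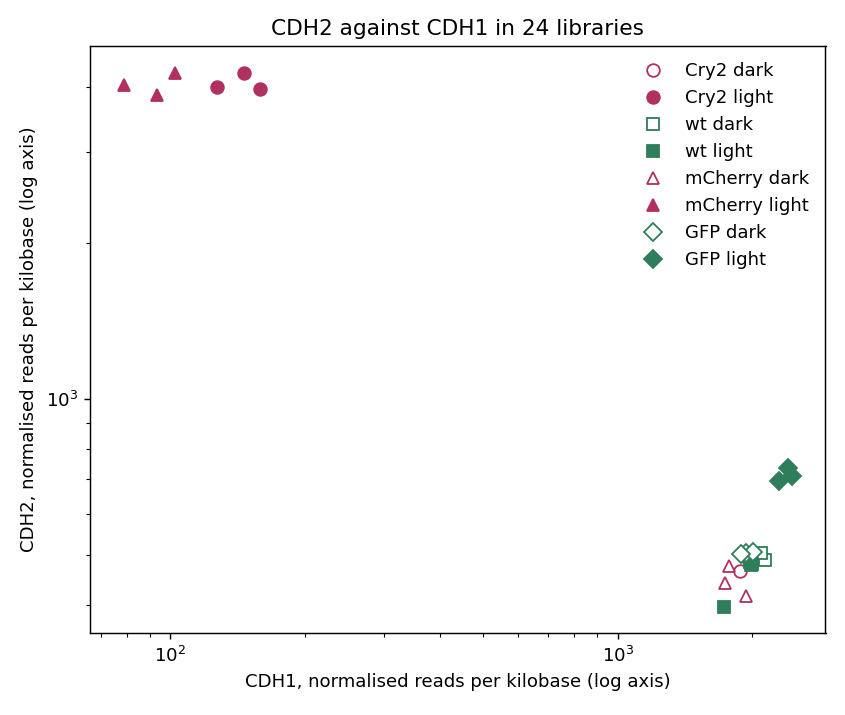
CDH2 against CDH1 in normalised reads per kilobase (both log axes), 1 point per library, red for engineered and green for wild-type cells, filled under light. The 6 illuminated engineered libraries lie at the upper left, the 3 GFP light libraries lie above and to the right of the other 15, and the ratio of the axes is 25.0 to 31.5 in Cry2 light and 0.289 to 0.307 in GFP light.

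Light alone was tested in wild-type monocultures. limma called 0 of the 10 genes, where 0.072% of 19444 genes were called, and both other tools called 0. In limma 0 were below an unadjusted p of 0.05, beside 2559 of all genes, and the number was 0 in edgeR and 1 in DESeq2. CDH1 was read at 12347, 10699 and 12267 in wt light and at 12221 to 13191 in wt dark, with overlap (log2 change -0.12, 95% interval -0.29 to 0.05). CDH2 was read at 2379.6, 1968 and 2362 under light and at 2398 to 2491 in the dark. These ranges did not overlap, and the log2 change was -0.13 (interval -0.28 to 0.03, limma adjusted p = 0.452). CDH6 was read at 38.3, 15.2 and 24.8 under light and 13.8, 23.7 and 11.2 in the dark (log2 change 0.63, interval -0.22 to 1.48), and CDH13 at 19.1, 13.3 and 10.4 against 41.3, 14.9 and 23.6 (log2 change -0.78, interval -1.61 to 0.05). CDH12 had 0 reads in all 3 wt light libraries, which allows up to 3 reads over the group.

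Under light, 9 of the 10 genes differed between engineered and wild-type monocultures (6 higher and 3 lower in engineered cells; 60.9% of all genes were called, 29.6% higher and 31.3% lower). CDH8 and CDH13, which did not pass for light in engineered cells alone, passed here. CDH8 was 1.88-fold higher in Cry2 light (344 ± 39.9) than in wt light (183 ± 9.05), and CDH13 5.58-fold higher (79.7 ± 20.3 against 14.3 ± 4.45, limma adjusted p = 6.64e-05). CDH12 was at least 133-fold higher, against that floor of 3 reads over the wt light group. The exception was CDH6, at 23.0 ± 5.31 in Cry2 light and 26.1 ± 11.6 in wt light.

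Wild-type cells that shared an illuminated culture with engineered cells had a different cadherin pattern. CDH6 was read at 31.0, 32.3 and 21.5 in GFP dark and at 444, 401 and 352 in GFP light. The lowest of the 3 illuminated libraries was at 352 and no other library of the 24 was above 41.0, a 14.1-fold higher mean than in GFP dark (399 ± 46.0 against 28.3 ± 5.92; log2 change 3.79 ± 0.32, limma adjusted p = 5.96e-06). CDH2 was read at 2491, 2508 and 2487 in GFP dark and at 3437, 3511 and 3645 in GFP light, 1.42-fold higher without overlap (log2 change 0.50 ± 0.07, limma adjusted p = 0.000679). These were the 2 of 10 genes past the threshold, both higher, where 4.6% of 19436 genes were called and 2.39% as higher. Both passed in limma, edgeR and DESeq2.

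CDH1 did not fall in these neighbours. It was read at 14191, 15154 and 14818 in GFP light and at 11927, 12405 and 11654 in GFP dark, higher in 3 of 3 libraries by 1.23-fold in the means. The limma test did not call it (log2 change 0.295, 95% interval 0.10 to 0.49, adjusted p = 0.0823). DESeq2 did (adjusted p = 0.0184), as did limma with all 24 libraries fitted together (adjusted p = 0.0398). These were the 2 of 16 alternatives that called CDH1. CDH4 (log2 change 0.32, interval 0.08 to 0.55) and CDH11 (0.32, interval 0.10 to 0.54) also missed the threshold, at adjusted p values of 0.132 and 0.0995. CDH3 was read at 8731, 10303 and 10745 in GFP light and 10529, 10204 and 9737 in GFP dark (log2 change -0.04, interval -0.23 to 0.16, limma adjusted p = 0.899). Without GFP light a, the log2 change of CDH3 was 0.05 (limma adjusted p = 0.816). CDH12 had 1, 15 and 0 reads in GFP light and 0 in all 3 GFP dark libraries, so that 1 library held 15 of the 16 reads.

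Transcripts that mark engineered cells, either at all times or under light, were also read in the GFP-positive sort. The Cry2 fusion, which marks engineered cells with or without light, stood at 358 to 422 in GFP light and 349 to 398 in GFP dark. The wt monocultures, which held no engineered cells, read it at 219 to 427. The puromycin resistance gene stood at 0 to 3.01 in GFP light, 0 to 5.72 in GFP dark and 0 in the wt monocultures, against 1978 to 4199 in mCherry light. MSGN1, read at 10861 in mCherry light, stood at 1.4 ± 1.35 in GFP light and 0.239 ± 0.413 in GFP dark, an excess of 0.0107% of the mCherry light level. The excess of TBX6 was -0.0706% of that level, of MIXL1 0.162%, of TBXT 0.411% and of CDH11 0.286%. The excess of CDH2 (1036 normalised reads) was 5.16% of its level in mCherry light. CDH6 was lower in mCherry light, at 8.21 ± 3.32, than in GFP light or GFP dark. Beside these values, the part of engineered cells in the CDH2 level of the GFP sort was not tested.

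Between the 2 cell kinds sorted from illuminated co-cultures, all 10 genes differed (6 higher and 4 lower in mCherry cells; 54.3% of all genes were called, 26.8% higher and 27.6% lower). CDH6 was 48.6-fold lower in the engineered than in the wild-type cells (log2 difference -5.49 ± 0.32, limma adjusted p = 1.64e-09). CDH1 was 26.1-fold lower, CDH3 9.35-fold lower, CDH2 5.68-fold higher and CDH11 69.9-fold higher. CDH8 was 1.44-fold higher (limma adjusted p = 0.0066), a call that reads thinned to equal depth did not give (0.071).

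The 2 cell kinds were also compared in cultures kept in the dark. Between dark monocultures limma called 0 of the 10 genes, where 3.6% of genes were called. At an unadjusted p under 0.05 there were 2 of the 10, beside 3317 of the 19444 genes tested, and edgeR and DESeq2 called 0. The 2 were CDH6, read at 33.0 ± 7.86 in Cry2 dark and 16.2 ± 6.58 in wt dark without overlap (log2 difference 1.02, interval 0.17 to 1.87, limma adjusted p = 0.19), and CDH13, at 48.1 ± 17.2 and 26.6 ± 13.4 with overlap (0.89, interval 0.06 to 1.72, adjusted p = 0.251). Between the dark sorted cells limma also called 0 of 10, where 0.797% of genes were called. At an unadjusted p under 0.05 there were 2 of the 10 (CDH2 and CDH13), beside 1098 of 19436 genes. edgeR called 0 and DESeq2 called 1, CDH13, beside 291 of 19435 genes. CDH13 was read at 40.2, 43.7 and 60.9 in mCherry dark and 23.0, 17.96 and 22.9 in GFP dark, 2.27-fold higher without overlap (log2 difference 1.13, interval 0.51 to 1.75, limma adjusted p = 0.137, DESeq2 adjusted p = 0.02).

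Interaction terms tested whether the light effects differed between cell kinds. In monoculture 8 of 10 genes had a light effect that differed between Cry2 and wt cells (5 higher, 3 lower; 47.8% of all genes, 22.8% higher and 25% lower). The 2 that did not pass were CDH6 and CDH8. edgeR and DESeq2 called 9 each, CDH8 among them, beside 9115 and 9557 of the 19444 genes. Without wt dark replicate 1 and Cry2 dark replicate 3 the count was 7, since the CDH13 term fell from 1.52 (adjusted p = 0.033) to 1.00 (adjusted p = 0.168, limma). The CDH13 term was also lost without any 1 of Cry2 light replicate 3, wt light replicate 3, Cry2 dark replicates 1 and 3 and wt dark replicates 1 and 3, at limma adjusted p values of 0.0502 to 0.0891, with reads thinned to equal depth (1.07, adjusted p = 0.142) and with no filter on low values (0.0534). In co-culture 8 of 10 differed between mCherry and GFP cells (4 higher, 4 lower; 40.5% of all genes, 19.5% higher and 21% lower), and CDH8 and CDH13 did not pass. The CDH6 term was -5.31 ± 0.46 on the log2 scale (limma adjusted p = 2.39e-07), since it fell in engineered and rose in wild-type cells. The CDH12 term of 5.01 ± 1.13 was called by limma (adjusted p = 0.00224) and not by edgeR (1.90, adjusted p = 0.862) or DESeq2 (2.60, adjusted p = 0.439), with most GFP light reads in 1 library.

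For wild-type cells, the light effect in co-culture was compared with that in monoculture. CDH6 (log2 difference 3.16 ± 0.52, limma adjusted p = 0.000625) and CDH2 (0.63 ± 0.10, adjusted p = 0.000488) were the 2 genes of 10 that limma called, both higher in co-culture, where 2.3% of 20322 genes were called and 1.41% as higher. DESeq2 called 5, beside 763 of the 20322 genes: CDH6 and CDH2 with CDH1, CDH4 and CDH12. For CDH12, 1 GFP light library held 15 of the 16 reads of that group. CDH1 had a difference of 0.42 (interval 0.17 to 0.67, limma adjusted p = 0.0775).

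The order of the group levels can be read for each gene, where neighbouring groups in the order are said to overlap when the ranges of their 3 libraries do. This is not a test, and groups farther apart in the order can also overlap. For CDH1, GFP light was highest (14721 ± 489) and stood clear of wt dark (12778 ± 501). wt dark, GFP dark, wt light, Cry2 dark and mCherry dark followed, each overlapping the next, then Cry2 light and mCherry light, each clear of the one above. For CDH2, Cry2 light (20160.5 ± 800) and mCherry light (20054 ± 990) overlapped, GFP light (3531 ± 105) was clear of both neighbours, and the other 5 groups overlapped in turn from 2495 down to 2203. For CDH11, Cry2 light and mCherry light overlapped, GFP light (458 ± 47.5) was next, and the other 5 ran from 375 down to 346. GFP light was clear of Cry2 dark, the next below it, but overlapped GFP dark (403 to 491 against 336 to 404). For CDH6, GFP light was clear of Cry2 dark, the second (33.0 ± 7.86), and all other neighbours overlapped. For CDH13, Cry2 light and mCherry light (78.95 ± 10.1) overlapped and were clear of mCherry dark (48.3 ± 11.1), and the rest overlapped in turn. Cry2 light (65.6 to 103) also overlapped Cry2 dark (37.2 to 67.9), which ranked below mCherry dark.

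Of 13 other cadherin genes listed, 8 were tested. In Cry2 light against dark, 3 rose and 3 fell, with a median log2 change of -0.30 against -0.01 over all genes, of which 58.4% were called. CDH10, a type II brain cadherin gene, went from 6.83 to 713 ± 44.5, and CDH24, a further type II gene, from 1094 to 6903 ± 559 (6.31-fold). CDH20 had no reads in the 3 Cry2 dark libraries and stood at 410 to 442 in the 3 illuminated ones. CDH23, a hair cell cadherin gene, fell 1.89-fold, and CDH26 and CDH15 also fell. In mCherry light, where 55.9% of all genes were called, the counts were again 3 and 3, among them CDH10 (649 ± 37.1), CDH20 (563 ± 51.4) and CDH24 (7394 ± 952) as higher. In GFP light limma called 0 of 8 (4.6% of all genes), edgeR and DESeq2 also called 0, and the median was 0.38. At an unadjusted p under 0.05 limma had 1 of the 8, beside 3215 of 19436 genes.

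Among 12 catenins and linkers, the cytoplasmic partners of cadherins, 2 rose and 7 fell in Cry2 light, with a median log2 change of -0.62. Of all genes, 28.1% were called as higher and 30.4% as lower. CTNNB1, the gene of beta-catenin, rose 1.39-fold from 25539 ± 823 to 35469 ± 854, and AFDN, the gene of the actin linker afadin, rose 1.54-fold. PLEKHA7, whose product binds p120-catenin at epithelial junctions, fell 40.7-fold from 1101 to 27.0 ± 9.6. VCL (vinculin) fell 2.27-fold, CTNNA2 (alpha-N-catenin) 2.21-fold and ARVCF 1.83-fold, and CTNNA1, CTNND2 and JUP also fell. CTNND1, the gene of p120-catenin itself, did not pass, at 16830 ± 276 against 15401 ± 66.7 (limma adjusted p = 0.245). In mCherry light 2 rose and 8 fell (27.2% and 28.7% of all genes), and PLEKHA7 was 32.7-fold lower. In GFP light limma called 0 of 12, beside 4.6% of all genes. At an unadjusted p under 0.05 limma had 2 of the 12, beside 3215 of 19436 genes. edgeR and DESeq2 each called 1, VCL, beside 1000 and 1451 of all genes.

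All 10 listed regulators of cadherin genes passed in both engineered populations, 7 higher and 3 lower, where 58.4% of all genes passed in Cry2 and 55.9% in mCherry cells. In Cry2 light the repressors of CDH1 rose: ZEB2 from 2.82 ± 2.46 to 4930.5 (4919 to 4941 over the 3 libraries), ZEB1 from 10.7 ± 0.508 to 814 ± 56.8, SNAI2 from 25.6 ± 11.1 to 1573 ± 66.5 and SNAI1 from 425 ± 9.87 to 17267 ± 577. TWIST1, TWIST2 and TCF3 were the other 3 that rose. GRHL2, an epithelial factor that binds CDH1 sequence, fell 13.5-fold from 1370.0 ± 19.0 to 101 ± 16.1, and KLF4 (7.77-fold) and OVOL1 (6.04-fold) fell with it. In GFP light 1 of 10 was called (4.6% of all genes), GRHL2, which rose 1.38-fold (1806 ± 54.4 against 1307 ± 113, limma adjusted p = 0.0485). ZEB2 stood at 7.95 ± 4.54, ZEB1 at 11.3 ± 8.28 and SNAI2 at 12.3 ± 4.17 in GFP light. Of 7 genes for cadherin processing and turnover, NCSTN and ADAM10 rose (1.81-fold and 1.51-fold) and PSEN2 (1.92-fold), CBLL1 and ADAM15 fell in Cry2 light, where 58.4% of all genes were called. The ADAM15 call (limma adjusted p = 0.0493) was not made by edgeR or DESeq2, and in mCherry light neither CBLL1 nor ADAM15 was called by any of the 3 tools.

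**Figure D5:**
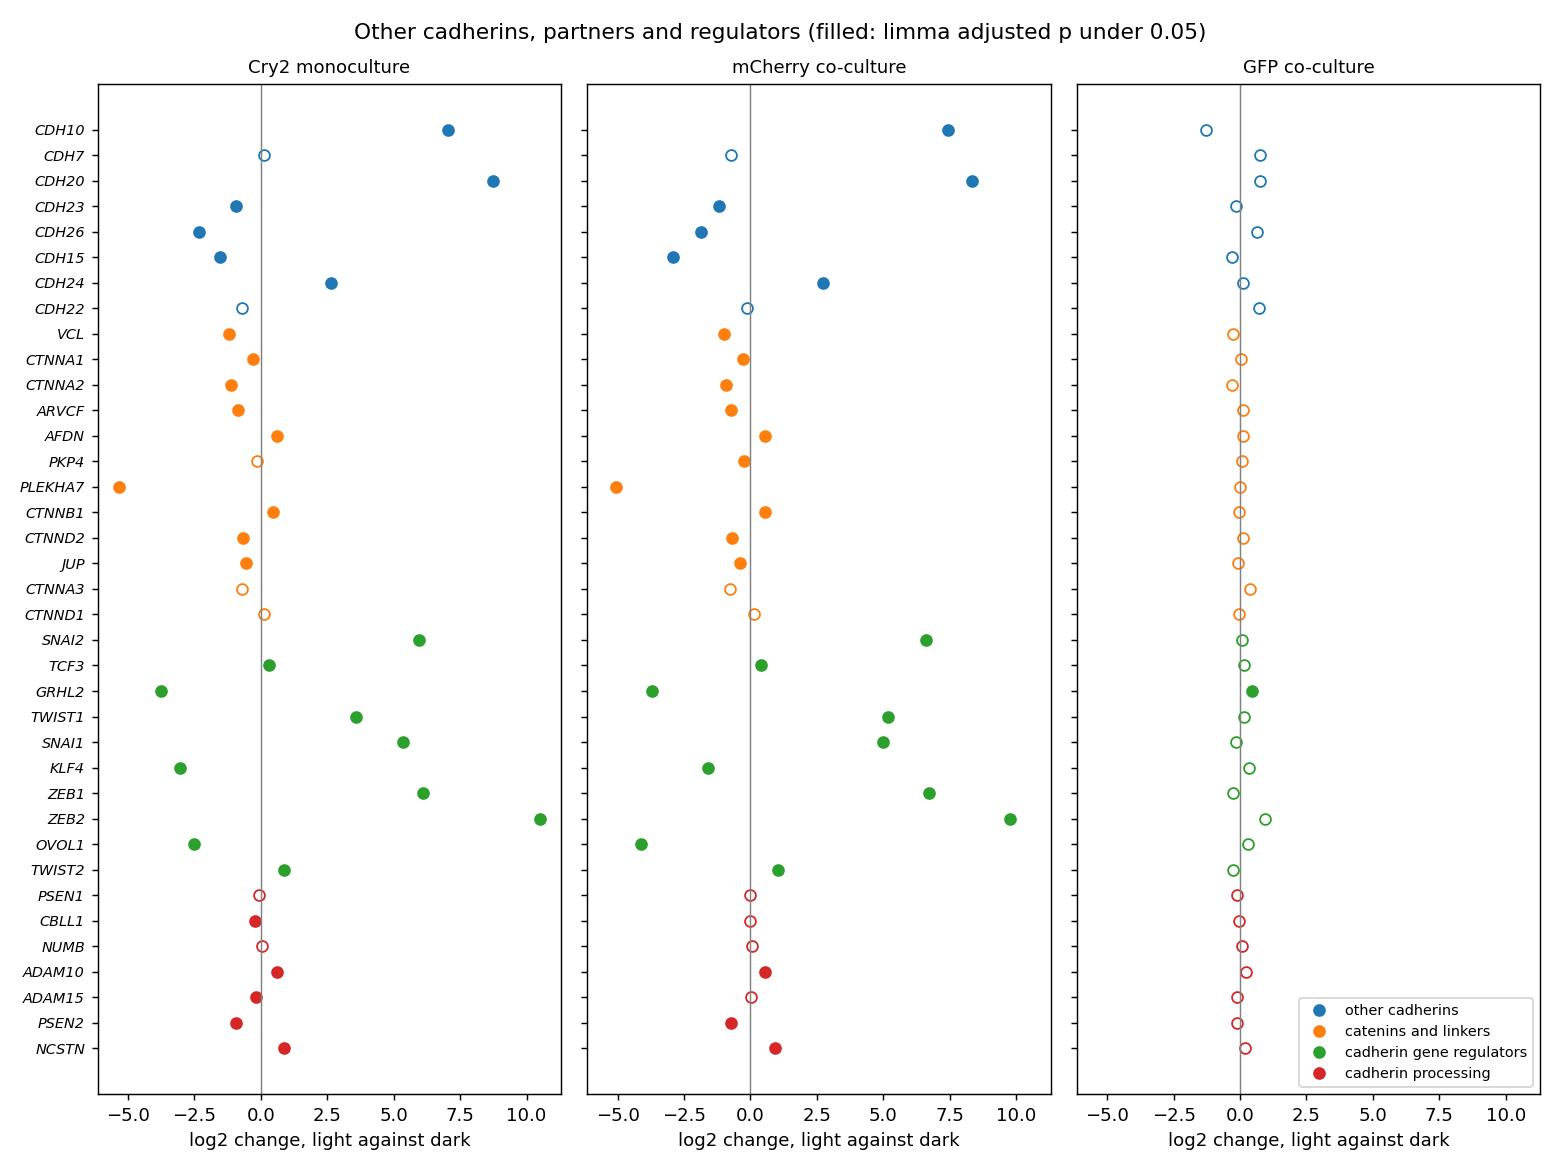
Log2 change under light against dark of tested genes in 4 lists (other cadherins, catenins and linkers, regulators of cadherin genes, and cadherin processing) in Cry2 monoculture, mCherry co-culture and GFP co-culture; points are limma estimates on the log2(value + 1) scale, filled where the adjusted p was under 0.05. In both engineered panels all 10 regulators are filled, and in the GFP panel GRHL2 is the 1 filled point, at 0.47.

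The genes most alike to a member were ranked by Pearson r of log2(value + 1) over the 24 libraries. For CDH1 the first 3 were ERBB3 (r = 0.9982), NANOG (0.9979) and ESRG (0.9974). ERBB3, a receptor of the EGF receptor family, was at 3059 ± 64.4 in Cry2 dark and 495 ± 14.9 in Cry2 light. For CDH2 they were SALL1 (0.9979), EVX1 (0.997) and ENC1 (0.9969), and for CDH3 MAP7 (0.9981), SCNN1A (0.998) and CTD-2142D14.1 (0.9975). For CDH11 they were HOXA-AS2 (0.9986), ABLIM1 and HOXB4 (both 0.9983). Such values are set mainly by the 6 illuminated engineered libraries, which lie apart from the other 18 in all of these genes. Among the members, r was 0.992 between CDH1 and CDH3, 0.993 between CDH2 and CDH11, and 0.473 between CDH1 and CDH6, over the same libraries.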

How the data were processed

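RNA of 24 libraries was read from a gene table in which the authors deposited signal values: read counts divided by 1 factor per library (100.0% of values came out whole within 0.01). The submitters' processing notes name FastQC, cutadapt, Bowtie2, STAR, HTSeq, DESeq and GRCh38, without versions; the header of the deposited sample table names hg19 with 4 construct genes, and this difference is unresolved. GC percent and the RNA integrity score per library are as deposited in that table and were used for the monocultures. Groups follow sample titles, which construct reads fit; the genotype tags of the monocultures name the opposite genotype. Sorted libraries map to groups only.

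The cadherin genes and lists were chosen with earlier results of these data known. All 10 members are named in every comparison where they bear on it. From each list, up to 4 genes a direction are named by largest log2 change among those called and reaching a mean of 50 on the higher side, with genes that go against the list's majority, and for CDH1, CDH2, CDH3 and CDH11 the genes of highest Pearson r. Other names were chosen after their values were seen. Log2(value + 1) was tested with limma 3.58.1 (R 4.3.3) on genes at 10 or more in at least 3 libraries of the fit (19444 genes in monoculture, 19436 in co-culture, 20322 together), with Benjamini-Hochberg adjustment and a threshold of 0.05. A log2 change understates the change of low genes. Alternatives were edgeR 4.0.16 and DESeq2 1.42.0 on recovered reads, pseudocounts of 0.5 and 5, other filters and scalings, thinning to 28211236 reads, a replicate block and leaving out libraries. Scripts were tested on simulated data. Counting intervals are exact at 95% and cover counting error only. Promoters are from RefSeq, and exon lengths from GENCODE 29 (28124 of 28297 genes matched).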

Additional observations from a re-analysis of the deposited data

Results flagged for a closer look

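In monoculture, an interaction term showed that the light effect differed between engineered and wild-type cells for 8 of 10 cadherin genes, where 47.8% of all 19444 genes were called. Its log2 size was -3.61 for CDH1, -3.01 for CDH3 and -2.69 for CDH5, whose light effects were lower in engineered cells, and 3.19 for CDH2, 2.01 for CDH4, 6.48 for CDH11, 7.15 for CDH12 and 1.52 for CDH13, whose effects were higher. The CDH13 call was lost in 9 of 24 alternatives, at 1.07 (limma adjusted p = 0.142) with reads thinned to equal depth. In the sorted cells, where 40.5% of all genes were called, the light effect differed between mCherry and GFP cells for CDH1 (-4.61), CDH3 (-3.31), CDH5 (-3.85), CDH6 (-5.31), CDH2 (2.69), CDH4 (1.59), CDH11 (6.11) and CDH12 (5.01). The CDH12 term was 1.90 in edgeR (adjusted p = 0.862) and 2.60 in DESeq2 (adjusted p = 0.439), so its call was limma's alone.

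In wild-type cells, the light effect was higher beside engineered cells than in monoculture by 0.63 for CDH2 and by 3.16 for CDH6 on the log2 scale. Of all genes, 2.3% were called in that comparison, 1.41% as higher.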

How the results depend on the processing

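Over the alternatives, every member change that passed the threshold and a choice of those that missed it were followed. Those that passed kept their direction and passed in 1013 cases and missed it in 22, most of them for CDH13; those followed that missed it stayed so in 267 cases and passed in 12. One change of sign occurred among the changes followed: CDH3 in GFP light against dark, -0.038 in the full fit, was 0.052 without GFP light a and -0.098 without c. DESeq2 called 1 gene (CDH13) between dark sorted cells where limma called 0, 1 (CDH1) for the engineered light effect in co-culture against monoculture where limma called 0, and 5 for the wild-type one where limma called 2. Of all genes, DESeq2 called 291, 24 and 763 in these comparisons and limma 155, 13 and 467. Leaving out 1 library at a time, counts of genes past the threshold were 6 to 7 in Cry2 light against dark, 8 to 9 in light Cry2 against wt, 9 to 10 in mCherry light against dark, 6 to 9 and 8 to 9 for the interaction terms in monoculture and co-culture, 0 to 1 for the engineered effect in co-culture against monoculture (1 without Cry2 light replicate 3 or mCherry light a), and as in the full fit elsewhere. CDH12 is not tested where a Cry2 light library is left out, since too few libraries then reach the filter. Low counts limit CDH5 and CDH12, with 7 and 1 reads in their low monoculture groups.

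With the replicate block the monoculture counts were 7, 0, 0, 9 and 8, as without it, and CDH1 in Cry2 light changed by -3.73 (limma adjusted p = 4.6e-13). The deviations of 18 same-numbered pairs correlated at -0.061 to 0.058, so the numbers are not taken to pair samples. The block could not be fitted in co-culture, where columns carry no numbers.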

Other observations

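CDH6 had the pattern most apart from the other cadherins, high in GFP light alone. Genes most like it by Pearson r over the 24 libraries, chosen after its values were seen, were COCH (0.915), PEG10 (0.852), FOXP1 (0.85), PPP1R3B (0.842) and PBX3 (0.839). COCH, the gene of the extracellular protein cochlin, was at 1674.5 ± 157 in GFP light and 668 ± 25.2 in GFP dark. PEG10, an imprinted gene derived from a retrotransposon, was at 18562.5 ± 556 and 10173 ± 1051. PPP1R3B, which encodes a glycogen-targeting phosphatase subunit, was at 2955 ± 203 and 1377 ± 126. All 3 illuminated libraries were above all 3 dark ones for each of the 5 genes. This follows from choosing them by likeness to CDH6 over the same libraries, and is not a separate result. Of the neural crest list, TFAP2A stood at 17.8 ± 2.53 in GFP light and at 0 in GFP dark (limma adjusted p = 0.000485). It was the 1 gene of 6 tested that limma called, where 4.6% of all genes were called, and the median log2 change of the 6 was -0.01. The list summed to 1078 to 1304 in GFP light and to 1378 to 1772 in GFP dark.

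Of the pluripotency list, NANOG was higher in GFP light than in GFP dark, at 6193 ± 189 and 4006 ± 218 (limma adjusted p = 0.000757), and TDGF1 was lower, at 15052 ± 1157 and 19171 ± 1293 (limma adjusted p = 0.0485). KDR, a receptor gene of the endothelial list, was at 6158 ± 232 and 5061 ± 178 (limma adjusted p = 0.0248). TWIST1 was the 1 of 10 regulators that limma called between dark monocultures, where 3.6% of all genes were called. It was at 5.24 in Cry2 dark and 0.415 in wt dark (limma adjusted p = 0.0297), both under the filter value of 10, so this call rests on few reads. edgeR and DESeq2 called 0 of the 10 there.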
